A study of Mus musculus with 12 samples.

Results

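The genes described are 9 markers of adult neurogenesis in the dentate gyrus, taken from a table of 37991 genes. They were chosen by their symbols for what they are known to mark, at a time when earlier results of these data were known. *Mki67* and *Top2a* mark dividing cells, *Eomes* and *Neurod1* intermediate progenitors, and *Dcx*, *Sox11*, *Sox4*, *Igfbpl1* and *Draxin* immature neurons. Their mRNA levels came from poly(A) RNA-seq of the hippocampi of 12 adult mice of strain C57BL/6N, aged 6 to 7 months by the labels and male by the study's methods, all of them killed 1 h after passive avoidance (PA) training, an aversive memory task. The methods give a younger range of ages for the mice of the study, and which of the ranges holds for these was not settled. By the labels, 6 libraries (*Gadd45a*-KO) came from *Gadd45a*-/- mice, in which the first exons of the gene are replaced by a cassette with the *PGK* promoter and the neomycin resistance gene, and 6 (Wildtype) from wild-type siblings of the same heterozygous crosses. The allele is constitutive, so it is carried by every cell of the animal, and each library came from 1 mouse. The comparison asked whether the neurogenic lineage of the hippocampus differed in mRNA level between the labels.

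In the adult mouse, stem cells in the subgranular zone of the dentate gyrus divide rarely and give rise to intermediate progenitors, which divide and become immature neurons that join the granule cell layer. The immature neurons carry doublecortin, the microtubule-binding protein of *Dcx*, and lose it as they mature. These cells are a small part of the hippocampus, so their transcripts are scarce in RNA of the whole structure, and several of the genes are also used by mature neurons or glia.

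None of the 9 markers rose or fell between the labels at 1% FDR, the threshold used throughout. *Dcx* showed the lowest p of the 9, with means of 17.2 CPM (reads on the gene scaled to the size of its library) in Wildtype and 14.6 CPM in *Gadd45a*-KO, and *Igfbpl1* the next, with means of 0.598 and 0.89 CPM, and neither passed after adjustment over all genes. Of the genes that pair with a marker by family or function, *Dcc*, which encodes a receptor of the Draxin protein, was lower in every library labelled *Gadd45a*-KO.

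The libraries held 44594261 to 55540601 reads on genes. The targeted gene went against the labels: *Gadd45a* was at 2.24, 3.43, 2.81, 2.24, 2.19 and 2.56 CPM in the libraries labelled Wildtype and at 23.1, 21.1, 21.1, 20.5, 20.5 and 22.3 CPM under the label *Gadd45a*-KO. This is a difference of 3.06 on the log2 scale (SE 0.09, adjusted p = 1.33e-10 by the quasi-likelihood test of edgeR, adjusted after Benjamini-Hochberg over all genes tested, as are all adjusted p-values here unless said otherwise). The last exon remains in the targeted allele, so a count over the whole gene does not by itself check the deletion, although by the study's methods the protein end that this exon encodes is not made. Whether the labels were exchanged was not tested, and every direction here is drawn between libraries by their labels and would turn if they were. Markers of the hippocampus were present in all 12 libraries: the summed level of 8 pyramidal neuron genes was 613 to 770 CPM in Wildtype and 506 to 866 CPM in *Gadd45a*-KO, and that of 9 granule neuron genes 674 to 969 and 488 to 885 CPM. Replicates 2 and 3 labelled *Gadd45a*-KO stood apart by 8 thalamus genes, which summed to 262 and 403 CPM there against 64.3 to 101 CPM in Wildtype. Reads without a gene were 17 to 18.9% of the gene reads in Wildtype and 15.1 to 16.8% in *Gadd45a*-KO, without overlap, and their part in the results was not tested.

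*Sox4* and *Sox11* encode closely related SoxC transcription factors, and their coding sequences are shown here because reads of one gene could be taken for the other only where both are alike. The stretch in which they are most alike lies in the part that encodes the DNA-binding HMG box. The sequences below are of genome build NCBIM37, read 5′ to 3′ on the minus strand, from chr13:29044501-29044740 for *Sox4* (coding bases 151 to 390 of 1323) and chr12:28026914-28027153 for *Sox11* (coding bases 121 to 360 of 1188), with the bases that differ in capitals.
Sox4: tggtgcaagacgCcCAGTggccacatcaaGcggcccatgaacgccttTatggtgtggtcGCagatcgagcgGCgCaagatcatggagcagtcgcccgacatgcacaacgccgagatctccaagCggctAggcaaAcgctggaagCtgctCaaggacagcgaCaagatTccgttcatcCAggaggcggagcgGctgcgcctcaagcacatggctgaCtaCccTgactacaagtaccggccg
Sox11: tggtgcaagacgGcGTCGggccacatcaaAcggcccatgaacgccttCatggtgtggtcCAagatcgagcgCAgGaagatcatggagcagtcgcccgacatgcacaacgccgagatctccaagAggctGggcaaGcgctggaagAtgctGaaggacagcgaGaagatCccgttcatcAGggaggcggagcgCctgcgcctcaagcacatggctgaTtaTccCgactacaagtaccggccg
The genes share 215 of these 240 bases (89.6%), and the longest run without a difference is 48 bases, shorter than the reads of 51 bases. A read that matches perfectly can therefore be assigned to one or the other in this stretch, and no window of 51 bases of *Sox11* was found in the transcripts of another protein-coding gene.

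Sequence set few limits on the other markers. Windows of 51 bases shared with another protein-coding gene were 0 for *Mki67*, *Top2a*, *Neurod1*, *Igfbpl1* and *Draxin*, 14 of 4151 for *Eomes* and 19 of 9343 for *Dcx*. For *Sox4* they were 355 of 4846, all shared with a second identifier of the same name that lies inside it and had 0 reads in every library. The overlap covers 405 of the exonic bases of *Sox4* (8.45%), and reads that fall on 2 genes were not counted for either, so the level of *Sox4* is somewhat understated in all libraries. In the same way 201 bases (7.37%) of *Neurod1* overlap *Cerkl* on the same strand.

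All 9 markers passed the filter on low counts, and the quasi-likelihood test of edgeR called 0 of them at 1% FDR, while it called 434 of the 16399 genes tested, or 2.65% of them (430 or 2.62% lower and 4 or 0.0244% higher in *Gadd45a*-KO). DESeq2 also called 0 of the 9, against 3.8% of the genes it gave an adjusted p, and so did edgeR at 5% FDR, against 4.55%. At an unadjusted p under 0.05, *Dcx* and *Igfbpl1* passed, 2 of 9, where 13.7% of all tested genes did. The log2 fold change, *Gadd45a*-KO minus Wildtype, was below 0 for 3 markers and above 0 for 6, with a median of 0.04 against 0.00 for all genes tested. The ranges of the labels overlapped for all 9, and were apart for 3.31% of the genes tested. In bulk tissue fewer cells of a type and less RNA per cell cannot be told apart, which holds for every value below. A count per gene also does not show where along a transcript its reads fall. For some genes lower in *Gadd45a*-KO, such as *Grin2a*, the study reports fewer reads over the exons but similar reads at the far 3′ end. Whether this holds for the genes described here was not tested.

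**Figure D1:**
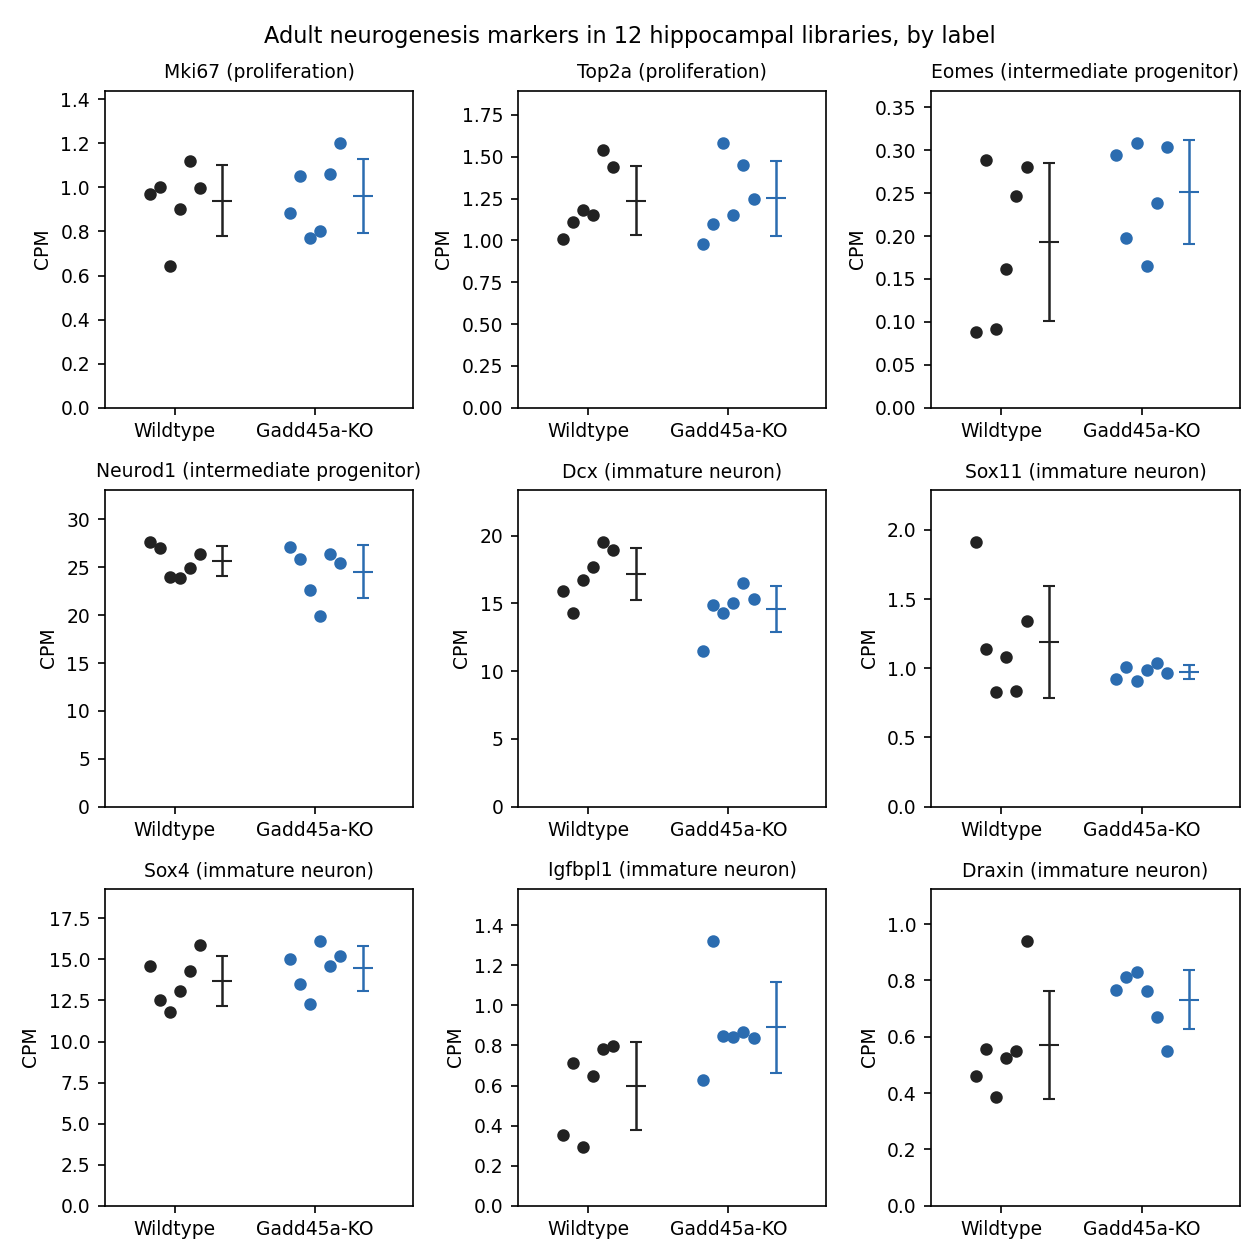
Levels of the 9 markers in CPM (vertical axes, linear from 0) in each of the 6 libraries labelled Wildtype (black points) and 6 labelled Gadd45a-KO (blue points), with the mean and SD beside them. The ranges overlap for every marker, and Dcx (means 17.2 and 14.6 CPM) and Igfbpl1 (0.598 and 0.89 CPM) differ most in relation to their spread.

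The plot of levels by library shows the spread that each comparison rests on. Per kilobase of annotated exon, *Neurod1* was the highest of the 9 (mean 9.19 CPM per kb over 12 libraries, range 7.27 to 10.1), followed by *Sox4* (2.94) and *Dcx* (1.25), none of whose ranges overlapped that of the next above. *Dcx* overlapped *Sox11* (0.537), which lay above *Igfbpl1* (0.229) without overlap. *Igfbpl1*, *Top2a* (0.137), *Draxin* (0.125), *Mki67* (0.0943) and *Eomes* (0.0535) each overlapped the next in that order. *Neurod1* is also expressed in mature granule neurons, and *Sox4* in other cells of the brain, so their places in this order are not those of progenitors or immature neurons alone.

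Among the proliferation markers, *Mki67* (ENSMUSG00000031004, chromosome 7, 142881471 to 142908062, minus strand, 10075 exonic bases) encodes the Ki-67 protein that coats chromosomes in dividing cells. It was at 0.643, 0.984 and 1.12 CPM (lowest, median and highest) in Wildtype and at 0.771, 0.969 and 1.2 CPM in *Gadd45a*-KO, from 35 to 63 reads per library. The ranges lay almost wholly on each other, and the log2 fold change was 0.04 (SE 0.15, 95% interval -0.29 to 0.36, edgeR adjusted p = 0.956). *Top2a* (ENSMUSG00000020914, chromosome 11, 98854257 to 98885503, minus strand) encodes the topoisomerase that untangles DNA in dividing cells. It was at 1.01, 1.11, 1.18, 1.15, 1.54 and 1.44 CPM in Wildtype and 0.981, 1.1, 1.58, 1.15, 1.45 and 1.25 CPM in *Gadd45a*-KO, with 46 to 82 reads. No library stood apart, and the log2 fold change was 0.01 (SE 0.14, 95% interval -0.29 to 0.32, edgeR adjusted p = 0.982). The sign of both values turned when some single libraries were left out, to -0.05 for *Mki67* and -0.06 for *Top2a*, and that of *Top2a* also without replicates 2 and 3 labelled *Gadd45a*-KO (-0.04).

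The other genes of cell division gave a like picture. Of 30 such genes, 27 could be tested and 0 passed at 1% FDR by edgeR's test, with 1 at an unadjusted p under 0.05 and a median log2 fold change of 0.06. *Pcna*, the sliding clamp of DNA replication, was at 25.8 ± 0.59 CPM in Wildtype and 26.6 ± 1.19 CPM in *Gadd45a*-KO (SD, n = 6 each). *Mcm6*, a subunit of the replicative helicase, was at 23.7 ± 2.08 and 22 ± 3.89 CPM. The summed level of all 30 genes was 89.5 to 94.5 CPM in Wildtype and 84.3 to 96.2 CPM in *Gadd45a*-KO. *Pcna* and *Mcm6* are the most abundant of the 30, so the sum says little of the scarcer ones, such as *Cdk1* (mean 0.228 CPM). *Nifk*, which encodes a partner of the Ki-67 protein, had a log2 fold change of 0.00 (edgeR adjusted p = 0.997). *Top2b*, the paralog of *Top2a* that is used in neurons that no longer divide, was lower in *Gadd45a*-KO, at 104 to 110 CPM against 112 to 127 CPM, with a log2 fold change of -0.16 (SE 0.03, edgeR adjusted p = 0.00741). The labels did not overlap for *Top2b*, but it lost its call at 1% FDR in 17 of 22 alternatives, among them 11 of the 12 in which 1 library was left out. Its log2 fold change stayed at -0.17 to -0.14 in those 12, and was -0.09 (edgeR adjusted p = 0.108) with the GC offset.

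Neural stem cells, from which the dividing cells derive, were represented by 15 genes that are largely shared with astrocytes. All 15 were tested and 0 passed at 1% FDR by edgeR's test. Of the 15, 6 had an unadjusted p under 0.05, a larger share than the 13.7% of all genes tested, and this difference in share was not tested. Their log2 fold changes were all above 0, up to 0.48, with a median of 0.12, while 51.8% of all genes tested were above 0 with a median of 0.00. *Gfap*, the intermediate filament of radial stem cells and astrocytes, was at 260 to 336 CPM in Wildtype and 301 to 402 CPM in *Gadd45a*-KO, a log2 fold change of 0.21 (SE 0.07, edgeR adjusted p = 0.151). *Slc1a3*, a glutamate transporter of the same cells, had one of 0.00 (SE 0.08). The 6 genes taken for astrocytes had a median of 0.08, of which 0 passed.

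Of the intermediate progenitor markers, *Eomes* (ENSMUSG00000032446, chromosome 9, 118387330 to 118395250, plus strand, 4155 exonic bases) encodes the T-box factor Tbr2, which is transient in these cells. It was near the limit of what the libraries could measure, with 4 to 14 reads in Wildtype and 8 to 16 in *Gadd45a*-KO, and 1.23% of the genes tested had a lower mean level. Its levels were 0.088, 0.289, 0.0919, 0.162, 0.247 and 0.28 CPM in replicates 1 to 6 labelled Wildtype and 0.294, 0.198, 0.308, 0.165, 0.238 and 0.304 CPM in those labelled *Gadd45a*-KO. Replicates 1 and 3 of Wildtype were the lowest of the 12. *Eomes* had a log2 fold change of 0.39 (SE 0.30, 95% interval -0.25 to 1.03, edgeR adjusted p = 0.653), and its interval does not exclude a difference of 1 on the log2 scale. Without replicate 3 of Wildtype the value was 0.25, and without replicate 2 it was 0.54.

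*Neurod1* (ENSMUSG00000034701, chromosome 2, 79292678 to 79296908, minus strand, 2729 exonic bases) encodes the bHLH factor needed for granule neurons to form and survive. Its levels were 27.6, 27, 24, 23.9, 24.9 and 26.4 CPM in Wildtype and 27.1, 25.9, 22.6, 19.9, 26.4 and 25.4 CPM in *Gadd45a*-KO, from 965 to 1381 reads. Replicate 4 labelled *Gadd45a*-KO was the lowest of the 12, and the medians were equal at 25.6 CPM. The log2 fold change of -0.06 (SE 0.07, 95% interval -0.21 to 0.09, edgeR adjusted p = 0.802) came to -0.00 without that library. Of 9 other intermediate progenitor genes, 8 could be tested and 0 passed, none had an unadjusted p under 0.05, and the median log2 fold change was 0.06. *Dll1*, a Notch ligand, had one of -0.01 (SE 0.13), and *Sstr2*, a somatostatin receptor, one of 0.03 (SE 0.13). *Tbr1*, a relative of *Eomes* used in glutamatergic neurons, had one of 0.02 (SE 0.09, edgeR adjusted p = 0.966).

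**Figure D2:**
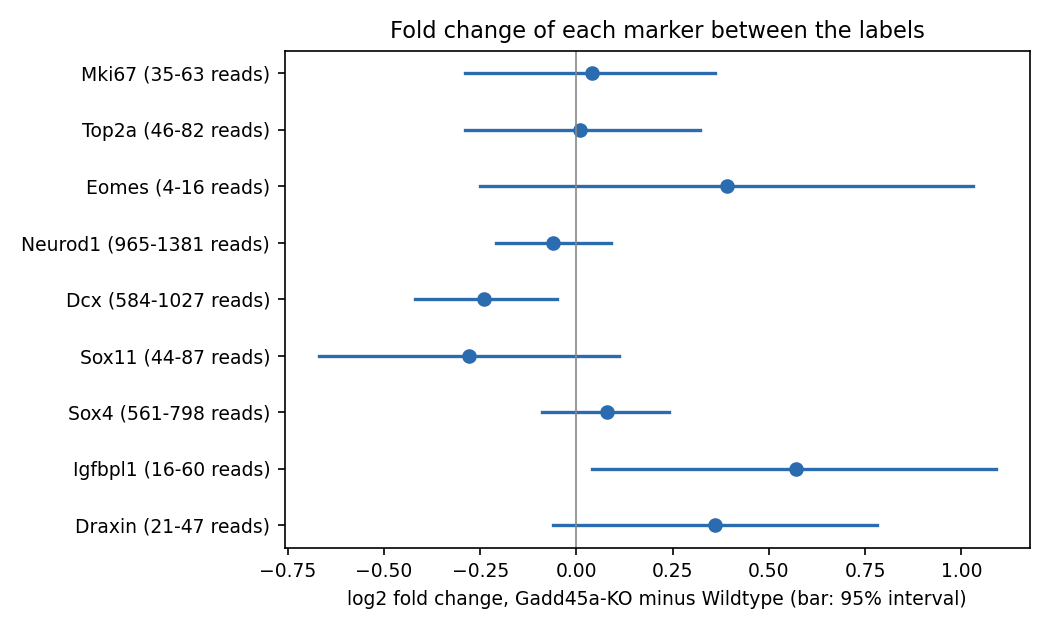
Log2 fold change of each marker, Gadd45a-KO minus Wildtype (horizontal axis), with its 95% interval from edgeR's quasi-likelihood fit (bars) and the range of reads per library beside each name. The intervals of Dcx (-0.42 to -0.05) and Igfbpl1 (0.04 to 1.09) do not reach 0 before adjustment over all genes, and those of the other 7 markers do.

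The immature neuron markers did not move one way. The plot of fold changes with their intervals shows *Dcx* and *Sox11* below 0 and *Sox4*, *Igfbpl1* and *Draxin* above it, and the widest interval for *Eomes*, the marker with the fewest reads. *Dcx* (ENSMUSG00000031285, chromosome X, 140290385 to 140367854, minus strand, 12650 exonic bases, of which up to 7709 are 3′UTR) was at 15.9, 14.3, 16.7, 17.7, 19.5 and 18.9 CPM in Wildtype and 11.5, 14.9, 14.3, 15, 16.5 and 15.3 CPM in *Gadd45a*-KO, from 584 to 1027 reads. Of the *Gadd45a*-KO libraries 6 of 6 lay under the Wildtype mean, but only replicate 1 lay under every Wildtype library. Its log2 fold change of -0.24 (SE 0.09, 95% interval -0.42 to -0.05, unadjusted p = 0.0169, edgeR adjusted p = 0.203) spans levels 0.75 to 0.97 times those in Wildtype, and the two-sided exact permutation test gave p = 0.0368, where the smallest it can give is 0.00216. With an offset for transcript length the value was -0.13 (edgeR adjusted p = 0.57), and with one for GC content -0.16.

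Relatives of *Dcx* were tested in the same fit. *Dclk1*, which encodes a doublecortin-like kinase of mature neurons and glia, had a log2 fold change of -0.16 (SE 0.05, edgeR adjusted p = 0.0869) at a mean of 718 CPM. The second such kinase gene, *Dclk2*, had one of 0.03 (SE 0.04, edgeR adjusted p = 0.871). *Pafah1b1*, listed as a partner, had one of -0.11 (SE 0.05, edgeR adjusted p = 0.327). None of these passed either.

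*Sox11* (ENSMUSG00000063632, chromosome 12, 28025562 to 28027574, minus strand, a single exon of 2013 bases) acts upstream of *Dcx* in immature neurons. It was at 1.91, 1.14, 0.827, 1.08, 0.837 and 1.34 CPM in Wildtype and 0.922, 1.01, 0.906, 0.987, 1.04 and 0.969 CPM in *Gadd45a*-KO, from 44 to 87 reads. Replicate 1 of Wildtype was the highest of the 12, and the libraries labelled *Gadd45a*-KO lay closer together than counting alone would give (SD 0.365 times the counting SD). A log2 fold change of -0.28 (SE 0.18, 95% interval -0.67 to 0.11, edgeR adjusted p = 0.569) became -0.09 without replicate 1 of Wildtype. *Sox4* (ENSMUSG00000076431, chromosome 13, 29040788 to 29045582, minus strand, 3 transcripts whose exons merge into 1 stretch of 4795 bases), its partner in starting the neuronal programme, was at 11.8, 13.7 and 15.9 CPM (lowest, median and highest) in Wildtype and 12.3, 14.8 and 16.1 CPM in *Gadd45a*-KO, with 561 to 798 reads. The ranges lay mostly on each other, with a log2 fold change of 0.08 (SE 0.08, 95% interval -0.09 to 0.24, edgeR adjusted p = 0.77) that ranged from 0.05 to 0.13 when 1 library was left out and was 0.18 (edgeR adjusted p = 0.295) with 1 surrogate variable. *Sox12*, the last member of the SoxC family, had one of -0.07 (SE 0.06, edgeR adjusted p = 0.732).

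*Igfbpl1* (ENSMUSG00000035551, chromosome 4, 45822340 to 45839795, minus strand, 3250 exonic bases) encodes a secreted protein related to the binding proteins of insulin-like growth factors. It was at 0.352, 0.712, 0.294, 0.649, 0.78 and 0.799 CPM in Wildtype and 0.628, 1.32, 0.848, 0.843, 0.866 and 0.836 CPM in *Gadd45a*-KO, from 16 to 60 reads. In *Gadd45a*-KO 5 of 6 libraries were above all of Wildtype, and replicate 1 lay within its range. This gave a log2 fold change of 0.57 (SE 0.24, 95% interval 0.04 to 1.09, unadjusted p = 0.0354, edgeR adjusted p = 0.31), or 1.03 to 2.13 times the level in Wildtype, and the two-sided exact permutation test gave p = 0.039. Without replicate 2 labelled *Gadd45a*-KO, the highest, it was 0.44. Of its relatives and partners, *Igfbp2* had a log2 fold change of 0.28 (SE 0.09, edgeR adjusted p = 0.153). The other binding protein genes listed did not move one way. *Igfbp4* had one of -0.19 (SE 0.11, edgeR adjusted p = 0.515), *Igfbp5* one of 0.04 (SE 0.13, edgeR adjusted p = 0.95) and *Igfbp7* one of 0.16 (SE 0.09, edgeR adjusted p = 0.461). *Igf1r*, the receptor gene, had one of -0.24 (SE 0.09, edgeR adjusted p = 0.203), and *Igf1*, the ligand gene, one of -0.25 (SE 0.07, edgeR adjusted p = 0.0604).

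*Draxin* (ENSMUSG00000029005, listed in the annotation as 2610109H07Rik, chromosome 4, 147472546 to 147504807, minus strand, 5200 exonic bases) encodes a secreted axon guidance cue. It was at 0.462, 0.556, 0.386, 0.523, 0.551 and 0.939 CPM in Wildtype and 0.765, 0.813, 0.829, 0.761, 0.672 and 0.551 CPM in *Gadd45a*-KO, from 21 to 47 reads. Replicate 6 of Wildtype was the highest of the 12, while the other 5 lay at or below 0.556 CPM. The labels differed by 0.36 on the log2 scale (SE 0.19, 95% interval -0.06 to 0.78, edgeR adjusted p = 0.458), and 0.57 (edgeR adjusted p = 0.0676) without that library.

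Draxin binds the netrin receptor encoded by *Dcc*, which also guides axons and migrating neurons. *Dcc* (ENSMUSG00000060534) was at 8.54, 10.1, 12.7, 9.31, 13.4 and 12.7 CPM in Wildtype, from 388 to 704 reads, and at 1.88, 1.8, 3.07, 3.07, 4.22 and 2.94 CPM in *Gadd45a*-KO, from 82 to 195 reads. The labels did not overlap, and the highest value under *Gadd45a*-KO was well under the lowest of Wildtype. With a log2 fold change of -1.98 (SE 0.18, 95% interval -2.37 to -1.58, edgeR adjusted p = 1.82e-05), *Dcc* passed 1% FDR in all 22 alternatives. *Neo1*, which encodes the related receptor neogenin, had one of -0.00 (SE 0.05, edgeR adjusted p = 0.994), and *Ntn1*, the netrin ligand, one of 0.11 (SE 0.06, edgeR adjusted p = 0.418). Which cells the *Dcc* reads came from was not tested.

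**Figure D3:**
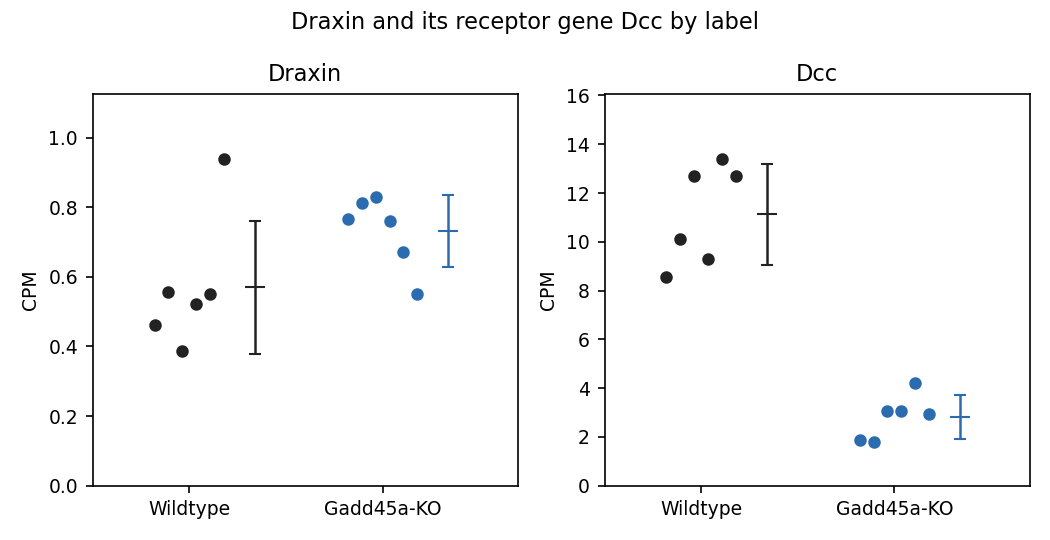
Levels in CPM (vertical axes, linear from 0) of Draxin and of Dcc, the gene of its receptor, in the 6 libraries of each label (points), with the mean and SD. The labels overlap for Draxin, while Dcc lies at 8.54 to 13.4 CPM in Wildtype and 1.8 to 4.22 CPM in Gadd45a-KO.

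The plot of *Draxin* and *Dcc* sets the secreted cue, whose labels overlapped, beside its receptor, whose labels did not. Of the 17 family members and partners of the markers, all tested, 2 were lower at 1% FDR (*Dcc* and *Top2b*, the latter not in most alternatives) and 0 higher, where 2.62% of all genes tested were lower and 0.0244% higher. Their median log2 fold change was -0.00. These genes were chosen with earlier results of these data known, so the count is a description only.

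The remaining genes of immature neurons gave no call. All 21 were tested and 0 passed by edgeR's test, with 0 at an unadjusted p under 0.05 and a median log2 fold change of 0.07. *Stmn2*, a microtubule regulator of growing axons that mature neurons keep, was at 260 to 370 CPM in Wildtype and 300 to 379 CPM in *Gadd45a*-KO. *Ncam1*, the cell adhesion molecule that carries polysialic acid on young neurons, was at 262 to 287 and 259 to 294 CPM. Among 34 genes of niche signals such as Wnt, Notch, BMP and growth factors, 0 passed and 4 had an unadjusted p under 0.05, with a median of 0.05, and the examples *Fgfr1* and *Chrd* had log2 fold changes of 0.05 (SE 0.04) and -0.13 (SE 0.10).

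The dentate gyrus may take a different share of each dissection, so the markers were also set against the granule neurons of the same library. Such a ratio adjusts for that share only where the reads of a marker come from the dentate gyrus, which was not tested. For a gene also expressed elsewhere, such as *Sox4*, a low granule sum raises the ratio by itself. The 9 granule neuron genes all had log2 fold changes below 0, with a median of -0.18 and 0 past 1% FDR or an unadjusted p under 0.05. Their summed level was 912, 913, 674, 801, 746 and 969 CPM in Wildtype and 885, 820, 618, 488, 844 and 814 CPM in *Gadd45a*-KO. Replicate 4 labelled *Gadd45a*-KO was the lowest, as it was for *Neurod1*, and *Prox1*, the factor that keeps granule neurons in their fate, ranged from 136 to 196 CPM in Wildtype and 79.1 to 160 CPM in *Gadd45a*-KO.

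As a percent of that sum, *Dcx* had a median of 2.08% in Wildtype and 1.92% in *Gadd45a*-KO, and its difference of -0.05 on the log2 scale (two-sided exact permutation p = 0.812) was smaller than the -0.24 of its CPM. *Igfbpl1* was at 0.0386, 0.078, 0.0436, 0.081, 0.105 and 0.0824% in Wildtype and 0.0709, 0.161, 0.137, 0.173, 0.103 and 0.103% in *Gadd45a*-KO, a log2 difference of 0.83 (two-sided exact permutation p = 0.0281). *Draxin* had medians of 0.0631% and 0.0928%, a log2 difference of 0.59 (two-sided exact permutation p = 0.0325). Both p-values are unadjusted over 9 such ratios, and both were over 0.05 without replicates 2 and 3 labelled *Gadd45a*-KO (0.129 and 0.105). The other ratios differed by -0.04 (*Sox11*) to 0.69 (*Eomes*) on the log2 scale, with two-sided exact permutation p-values of 0.0606 to 0.779.

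**Figure D4:**
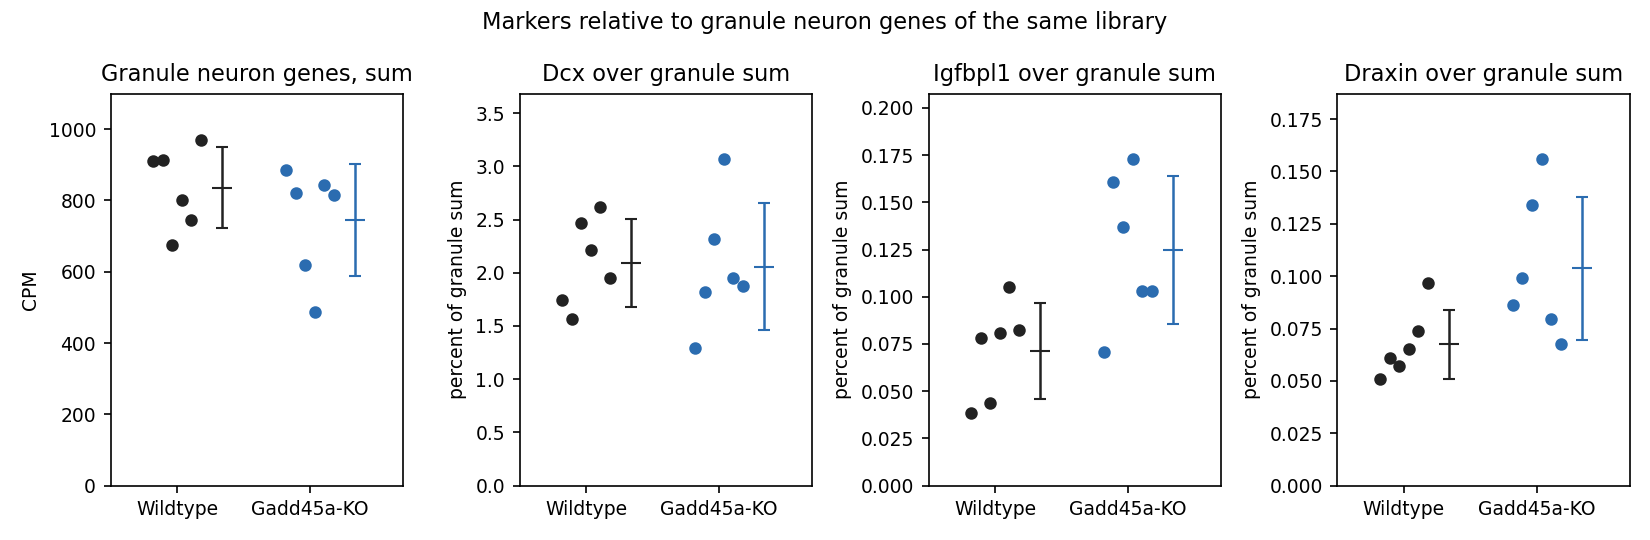
Summed level of the 9 granule neuron genes in CPM, and Dcx, Igfbpl1 and Draxin as a percent of that sum (vertical axes, linear from 0), in the 6 libraries of each label (points) with the mean and SD. Replicate 4 labelled Gadd45a-KO has the lowest granule sum (488 CPM) and the highest percent of each of the 3 markers.

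The plot of ratios to granule neuron genes shows that 1 library, replicate 4 labelled *Gadd45a*-KO, had both the lowest sum and the highest percent of *Dcx*, *Igfbpl1* and *Draxin*. Without it, the log2 differences of *Igfbpl1* and *Draxin* were 0.72 and 0.46 (two-sided exact permutation p = 0.0563 for each). That of *Dcx* was then -0.18 (two-sided exact permutation p = 0.344). It was 0.07 (two-sided exact permutation p = 0.693) without replicate 1 labelled *Gadd45a*-KO instead. The sign and size of the *Dcx* ratio difference thus depended on single libraries.

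Correlations between markers among the libraries of a label are given as values, since a set of 6 libraries can give no exact permutation p under 0.00139 and a single pair could not pass after adjustment over 72. Over 36 pairs in each label, 72 correlations of 6 libraries each, Pearson's r ranged from -0.74 to 0.94, 4 had an unadjusted exact permutation p under 0.05, and the smallest p after Benjamini-Hochberg adjustment was 0.65. The sign was the same in both labels for 18 of 36 pairs. The highest was that of *Eomes* and *Igfbpl1* in Wildtype (r = 0.94, exact permutation p = 0.0139, adjusted 0.65; rho = 0.77, exact permutation p = 0.103, adjusted 0.754), which fell to 0.75 without the 2 libraries farthest from the median of *Eomes* and was -0.49 in *Gadd45a*-KO. *Top2a* and *Dcx*, dividing cells and immature neurons, gave r = 0.83 in Wildtype (exact permutation p = 0.0486, adjusted 0.65, and rho = 0.89, exact permutation p = 0.0333, adjusted 0.754). Without the 2 libraries farthest from the median of *Top2a* it was 0.37, so the value in Wildtype depended on those libraries. In *Gadd45a*-KO the pair gave r = 0.61 (exact permutation p = 0.182, adjusted 0.821), and 0.98 without the 2 farthest.

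Some of this spread was counting error. The SD over libraries of a label was 1.18 and 1.2 times the counting SD for *Mki67* and 1.3 and 1.41 times for *Top2a*, in Wildtype and *Gadd45a*-KO, but 3.33 and 3.09 times for *Dcx*, 2.18 and 3.92 times for *Neurod1* and 2.89 and 2.47 times for *Sox4*. For *Igfbpl1* it was 2.02 and 1.69 times, for *Draxin* 1.8 and 0.854 times and for *Eomes* 1.47 and 0.853 times.

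By the deviations of log2 CPM from the label means over all 12 libraries, the genes most like each marker were taken from the 13860 genes with a mean of at least 1 CPM, as a description with no test. *Neurod1* was most like *Bhlhe22* (r = 0.965), another bHLH factor gene, then *Ccdc85a* (0.961) and *Msl2* (0.953). *Dcx* was most like *Pde9a* (0.947), a phosphodiesterase gene, then *Fam55d* (0.916) and *Tdrd7* (0.909), and *Sox4* most like *Crhr1* (0.952), the gene of a receptor for corticotropin-releasing hormone, then *Ankrd10* (0.929) and *Cbfa2t3* (0.921). *Igfbpl1* was most like *Cdh5* (0.93), the cadherin of endothelial cells, *Gja1* (0.924), the connexin of astrocytes, and *Fgd5* (0.923). *Draxin* was most like *Mfap1a* (0.955), *Nes* (0.91), the intermediate filament of neural stem cells, and *Myo10* (0.909). The first genes for the other markers were *Srsf2* for *Mki67* (0.918), *Sh3bgrl2* for *Top2a* (0.923), *Slain2* for *Eomes* (0.95) and *Maz* for *Sox11* (0.912). With 12 libraries and this many genes, high values are found for any gene, and the same libraries and depth underlie all of them.

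Markers of other cells that the dissection could hold are given beside the markers of neurogenesis. Oligodendrocyte precursors, which also divide, had 10 genes tested and 0 called, with a median log2 fold change of 0.09 and sums of 230 to 252 CPM in Wildtype and 221 to 305 CPM in *Gadd45a*-KO. The 7 genes of subventricular neuroblasts, which also carry *Dcx* and *Sox11*, summed to 33.9 to 38.1 and 32.6 to 39.6 CPM with a median of -0.03, and those of Cajal-Retzius cells to 74.7 to 108 and 79.2 to 99.4 CPM, of which 6 of 7 were tested and 0 passed (median 0.14). Endothelial genes, 7 of 7 tested, summed to 168 to 228 and 204 to 224 CPM with a median of 0.12 and 0 called. The 7 microglia genes had a median of 0.08 and 0 called. None of the genes of these lists was at 0 in all libraries, and their part in the values of the markers was not tested.

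Genes of the structures next to the hippocampus did not pass either, but had the highest medians. Of 8 thalamus genes 7 were tested and 0 passed, with a median log2 fold change of 1.13, the 8 choroid plexus genes had a median of 0.45 and the 5 ependymal genes one of 0.60, with 0 called. Without replicates 2 and 3 labelled *Gadd45a*-KO, a comparison chosen after seeing the data, 0 of the 9 markers passed by edgeR's test. Their log2 fold changes were then 0.07 for *Mki67*, -0.04 for *Top2a*, 0.39 for *Eomes*, -0.05 for *Neurod1*, -0.24 for *Dcx*, -0.27 for *Sox11*, 0.15 for *Sox4*, 0.41 for *Igfbpl1* and 0.27 for *Draxin*. *Dcx*, the only marker with a lower level in all 6 libraries labelled *Gadd45a*-KO than the Wildtype mean and an unadjusted p under 0.05, thus had the same value with and without them. Its edgeR adjusted p was 0.453 without them. *Eomes* also kept its value of 0.39.

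**Figure D5:**
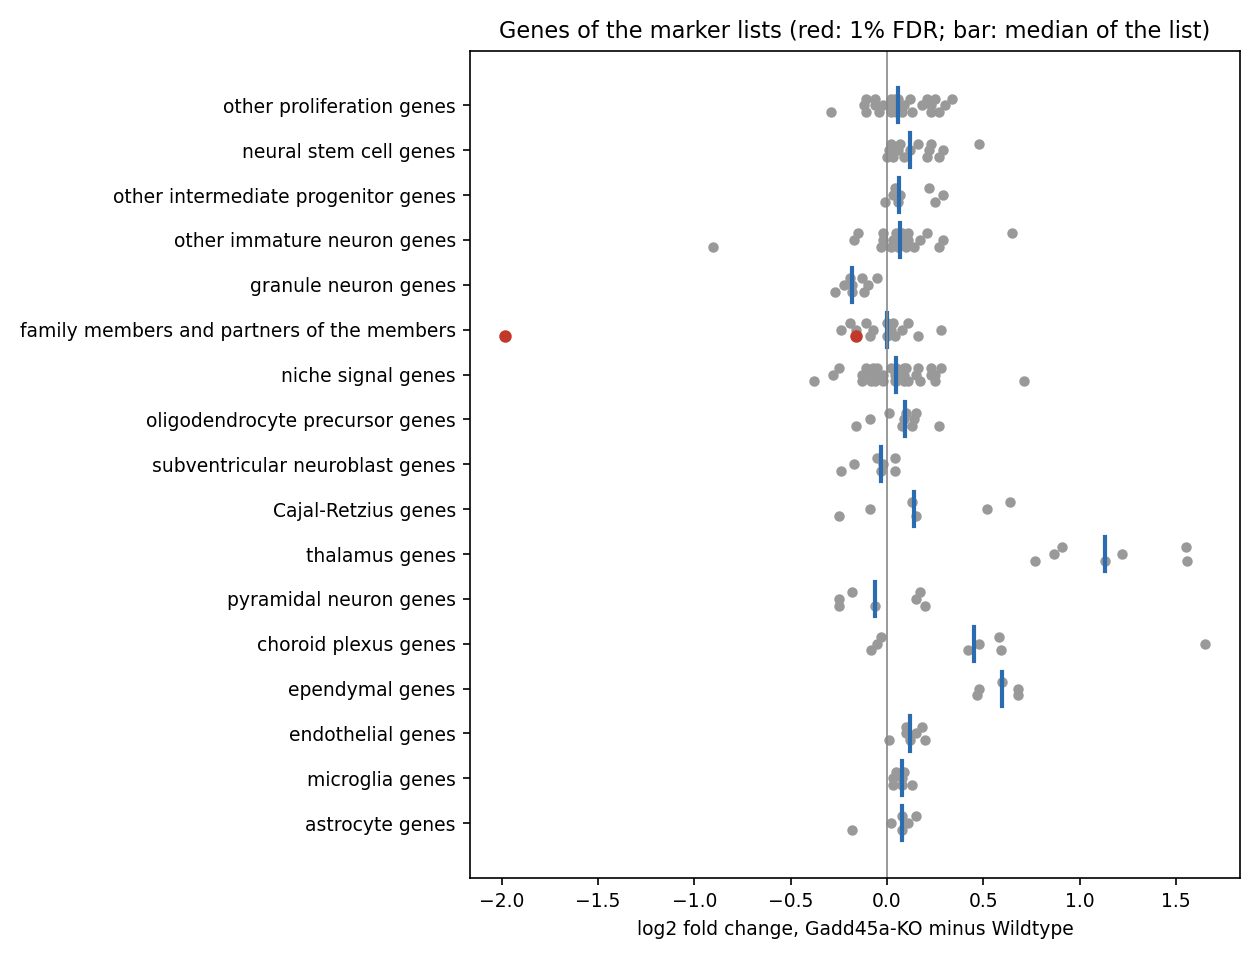
Log2 fold change, Gadd45a-KO minus Wildtype (horizontal axis), of each tested gene (points) of the 17 marker lists (vertical axis), with the median of each list as a bar and genes at 1% FDR in red. Only Dcc (-1.98) and Top2b (-0.16) passed, and the medians lie between -0.18 and 0.14 except for thalamus (1.13), choroid plexus (0.45) and ependymal genes (0.60).

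The plot of the 17 lists places all of these genes on 1 scale. Of 208 genes in the lists, 201 were tested and 2 were called by edgeR's test, or 0.995%, below the 2.65% of all genes tested. Both were family members or partners of the markers and neither belongs to the lists of the neurogenic lineage itself. The 17 lists were chosen with earlier results of these data known, so the share called among their genes is a description and tests nothing.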

How the data were processed

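The authors aligned single-end reads of 51 bases from stranded poly(A) libraries (TruSeq) with TopHat 1.4.1 to NCBIM37/mm9 and counted them per Ensembl gene with HTSeq 0.5.4p3 on the matching strand, by the submitters' processing notes and the study's methods. The authors deposited whole read counts per gene for each of the 12 libraries, without normalization or pooling. Reads that fell on 2 genes (0.745 to 0.804% of the gene reads) or on none were left out of library sizes.

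Gene IDs were named from GENCODE vM1 of the same build, which matched 37205 of 37991. All 9 markers were found, *Draxin* through its synonym in RefSeq, and coordinates and sequences come from that annotation and genome. Counts were filtered by expression, scaled by TMM and compared between labels with edgeR 4.0.16 in R 4.3.3 (quasi-likelihood test, no covariate, Benjamini-Hochberg adjustment over the 16399 genes tested, 1% FDR as in the study). Each SE was obtained by dividing the absolute log2 fold change by the root of its F statistic. Log2 CPM used a prior count of 2. The two-sided exact permutation tests used Python 3.11.15 and scipy 1.17.1, and figures matplotlib 3.10.9. The fitting procedure was tested on simulated data. Alternatives were DESeq2 1.42.0 on 17831 genes with an adjusted p, RLE size factors, no filter or at least 10 reads in every library, 5% FDR, offsets for length or GC content (splines with 5 degrees of freedom), 1 surrogate variable (sva 3.50.0), the replicate number as a block, and leaving out each library.

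The members and the 17 lists were chosen with earlier results of these data known. Named were all 9 markers, list genes at 1% FDR or otherwise the 2 of highest mean CPM, the 3 genes most like each marker, and *Gadd45a*. *Nifk*, *Tbr1*, *Sox12*, *Dclk1*, *Dclk2*, *Pafah1b1*, *Neo1* and *Ntn1* were named as partners of single markers after their values were seen. So were *Igfbp2*, *Igfbp4*, *Igfbp5*, *Igfbp7*, *Igf1r* and *Igf1*. Libraries are called by their labels, since *Gadd45a* counts ran opposite to them. Pairs of libraries of a label differed by more than counting error (chi-square per degree of freedom 9.03 to 40.8 over 30 pairs), so all 12 were kept as separate samples.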

Additional observations from a re-analysis of the deposited data

Results flagged for a closer look

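A single library lay far from the other 5 of its label in 2 of the 22 groups of 6 libraries examined, where chance gives about 1 in 20 groups, or 1.1. *Igfbpl1* was at 1.32 CPM in replicate 2 labelled *Gadd45a*-KO, with the others at 0.628 to 0.866 CPM, so that the gap to the nearest was 0.654 of the whole range. *Draxin* was at 0.939 CPM in replicate 6 labelled Wildtype, with the others at 0.386 to 0.556 CPM and a gap of 0.692 of the range.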

How the results depend on the processing

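At 1% FDR, 0 of the 9 markers passed in any of the 22 alternatives, 12 of which left out 1 library each (range 0 to 0). *Eomes* could not be tested with at least 10 reads in every library. Of 197 alternative fold changes of the markers, 189 kept their sign and 8 changed it: *Mki67* and *Top2a* ranged from -0.05 to 0.10 and from -0.06 to 0.09 when 1 library was left out, and *Top2a* was -0.06 with 1 surrogate variable and -0.04 without replicates 2 and 3 labelled *Gadd45a*-KO, an alternative chosen after seeing the data. *Draxin* ranged from 0.28 to 0.57, lowest without replicate 3 of Wildtype, and *Igfbpl1* from 0.43 to 0.68. Of the list genes, 2 passed, but 1 (*Dcc*) with no filter, with the length offset, alone or with the replicate block, with the GC offset, with 1 surrogate variable and without those replicates 2 and 3, and 1 to 2 when 1 library was left out. The cause was not tested. Of the ratios to granule neuron genes, 2 had p under 0.05 by the two-sided exact permutation test, 0 to 4 when 1 library was left out, 0 with the replicate block (p = 0.0625 for *Igfbpl1* and 0.0938 for *Draxin*) and 0 without replicates 2 and 3 labelled *Gadd45a*-KO. Against *Prox1* alone the ratios of *Dcx* and *Sox11* turned to 0.06 and 0.07, and they ranged from -0.18 to 0.07 and from -0.16 to 0.08 when 1 library was left out. Correlations past adjustment were 0 in both alternatives too, which says nothing of stability, since a single pair could not pass. Same-numbered libraries share only a number: 5 of 6 pairs of deviations correlated over 0.1, the last at -0.0761, and 1 of 6 matched its own number best. With the replicate block the calls over all genes went from 434 to 514 and those of the markers stayed at 0, the lowest adjusted p being 0.0594 for *Dcx*. DESeq2 called 678 genes and edgeR at 5% FDR 746, with 0 of the markers in each. *Eomes*, *Igfbpl1*, *Draxin*, *Mki67*, *Top2a* and *Sox11* rested on 4 to 87 reads per library, and several of them also varied beyond counting error. *Mki67* was at 0.12 with the length offset and 0.13 with 1 surrogate variable, and *Neurod1* at -0.01 with the GC offset.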

Other observations

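The most abundant tested genes of the lists of other cell types, none of which passed at 1% FDR by edgeR's test, are given here by their log2 fold change, *Gadd45a*-KO minus Wildtype. In oligodendrocyte precursors, which also divide in the adult, *Olig1* and *Pdgfra* had values of 0.15 (SE 0.12) and -0.09 (SE 0.08). *Dlx1* and *Pax6* of subventricular neuroblasts had values of -0.03 and 0.04. *Reln* and *Ndnf* of the Cajal-Retzius list had values of -0.09 and -0.25. They were the only 2 of that list below 0, while 4 were above it and the median was 0.14. Among pyramidal neuron genes, 7 of 8 tested with a median of -0.06, *Mpped1* and *Wfs1* had values of -0.18 and -0.25. The endothelial genes *Flt1* and *Slco1a4* had values of 0.12 and 0.10, the microglia genes *Csf1r* and *Cx3cr1* of 0.08 and 0.03, and the astrocyte genes *Slc1a2* and *Aldoc* of -0.18 (SE 0.05, adjusted p = 0.103) and 0.02.

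Genes of structures next to the hippocampus are given in the same way. *Prkcd* and *Slc17a6* of the thalamus list had log2 fold changes of 0.91 (SE 0.35) and 1.22 (SE 0.52), with levels of 33.3 to 69.4 and 3.21 to 16 CPM in Wildtype and 38.8 to 216 and 5.57 to 49.1 CPM in *Gadd45a*-KO. *Kl* and *Ttr* of choroid plexus had log2 fold changes of -0.05 and 0.58, and *Foxj1* and *Rarres2* of ependyma of 0.48 and 0.47.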
